A study of Homo sapiens with 6 samples.

Results

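Deoxynucleotide and thymidylate supply was followed through 10 genes, RRM1, RRM2, TYMS, TK1, DTYMK, DCK, DCTD, DUT, SAMHD1 and SLC29A2, in the human cell line C666-1, which was derived from a nasopharyngeal carcinoma and still carries Epstein-Barr virus. The genes were chosen by their known roles, with earlier results of these data known. All 10 were found by symbol among the 16407 genes of the expression table. They all passed the filter on low counts, as did 12548 genes in all. Cells had spent 24 h in medium without serine and glycine (3 libraries) or in complete medium with 0.4 mM of each (3 libraries). The 2 media were otherwise alike, with 4.5 g/L glucose, 10% dialyzed serum and no other non-essential amino acids. All libraries come from this single line, and separate cultures are not mentioned in the labels, so each p-value reflects only how far these libraries spread, and that spread may be technical.

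DNA synthesis needs a balanced pool of deoxynucleoside triphosphates. Ribonucleotide reductase makes the deoxy forms from ribonucleotides. Thymidylate synthase adds a methyl group to deoxyuridylate, with the carbon taken from a folate that serine loads. Salvage kinases recover deoxynucleosides that carriers bring in through the membrane, and SAMHD1 and other hydrolases break the pool down again. Several of these genes, RRM2, TK1 and TYMS among them, are textbook genes of S phase, so their RNA in a culture also depends on how many cells are in that phase. In bulk RNA, fewer cells of a kind and less RNA per cell cannot be told apart.

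The libraries without serine and glycine held 16676318 to 17030355 estimated counts and those in complete medium 16612196 to 16902750. Levels are given as TPM, which corrects for gene length and allows genes to be compared, or as CPM, which scales counts to library size and serves to compare a gene between libraries. Keratin genes fitted the epithelial label, with KRT18 at 1088 to 1140 TPM without serine and glycine and 1151 to 1240 TPM in complete medium. EPCAM was low, at 10.0 to 11.7 TPM and 10.1 to 10.9 TPM, and CDH1, the E-cadherin gene, was near 0, at 0.05 to 0.21 TPM and 0.10 to 0.17 TPM. Of 5 epithelial markers tested, KRT19 was called lower and 0 were called higher, beside 4.22% and 2.73% of all tested genes. Of 6 leukocyte markers, PTPRC was at 0 in 4 libraries and had at most 2 counts in the others, and CD68 made up most of the summed level, which was 50.8 to 59.1 TPM without serine and glycine and 69.9 to 79.3 TPM in complete medium. CD68 itself was called lower (log2 change -0.54, edgeR adjusted p = 0.0217), while CD14, the other leukocyte marker with enough counts, was at a log2 change of 1.39 (edgeR adjusted p = 0.0764, and 0.0404 with the block). Their part in the results was not tested. Of 3 fibroblast and 2 endothelial markers tested, 0 were called by edgeR, DESeq2 or limma voom. An unadjusted edgeR p under 0.05 was found for 1 fibroblast marker, which was lower, and 0 endothelial markers. Over all tested genes 14.4% were lower and 12.9% higher at that p.

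Of the 10 genes, 5 fell and 0 rose without serine and glycine, by edgeR's quasi-likelihood test with Benjamini-Hochberg adjustment over 12548 genes at 0.05. The genes that fell were RRM2, SLC29A2, TK1, TYMS and DUT. Over all tested genes, 4.22% were called lower and 2.73% higher, 6.95% in all. The median log2 change of the 10 genes was -0.27, against -0.000702 over all tested genes, and 9 of the 10 were on the negative side, as were 50.2% of all tested genes. A log2 change is the level without serine and glycine over that in complete medium. DESeq2 and limma voom each called 5 lower and 0 higher. Of the 12548 genes, DESeq2 called 5.87% lower and 3.92% higher and limma voom 4.14% and 2.7%. DESeq2 gave an adjusted p to only 11298 genes, so its shares of those genes are larger. At an unadjusted edgeR p under 0.05, 6 were lower and 0 higher, beside 14.4% and 12.9% of all tested genes. With the shared library number as a block, 6 were lower and 1 higher, beside 13.2% and 11.1% of all genes. The labels do not say that a shared number marks a pair or a batch. In 7 of the 10 genes, every library without serine and glycine lay below every library in complete medium on the CPM scale, as in 16.4% of all tested genes. Without library 2 or 3 of either medium edgeR and limma voom each called 0 of the 10 genes and 0 genes in the whole table. In these 4 fits DESeq2 called 3 to 5 of the 10 lower, and 235 to 602 genes in the whole table. An unadjusted edgeR p under 0.05 was found for 5 to 7 of the 10 genes. The same held for 2173 to 2846 of the 12659 to 12674 genes tested in these fits. All 10 genes kept their sign.

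**Figure D1:**
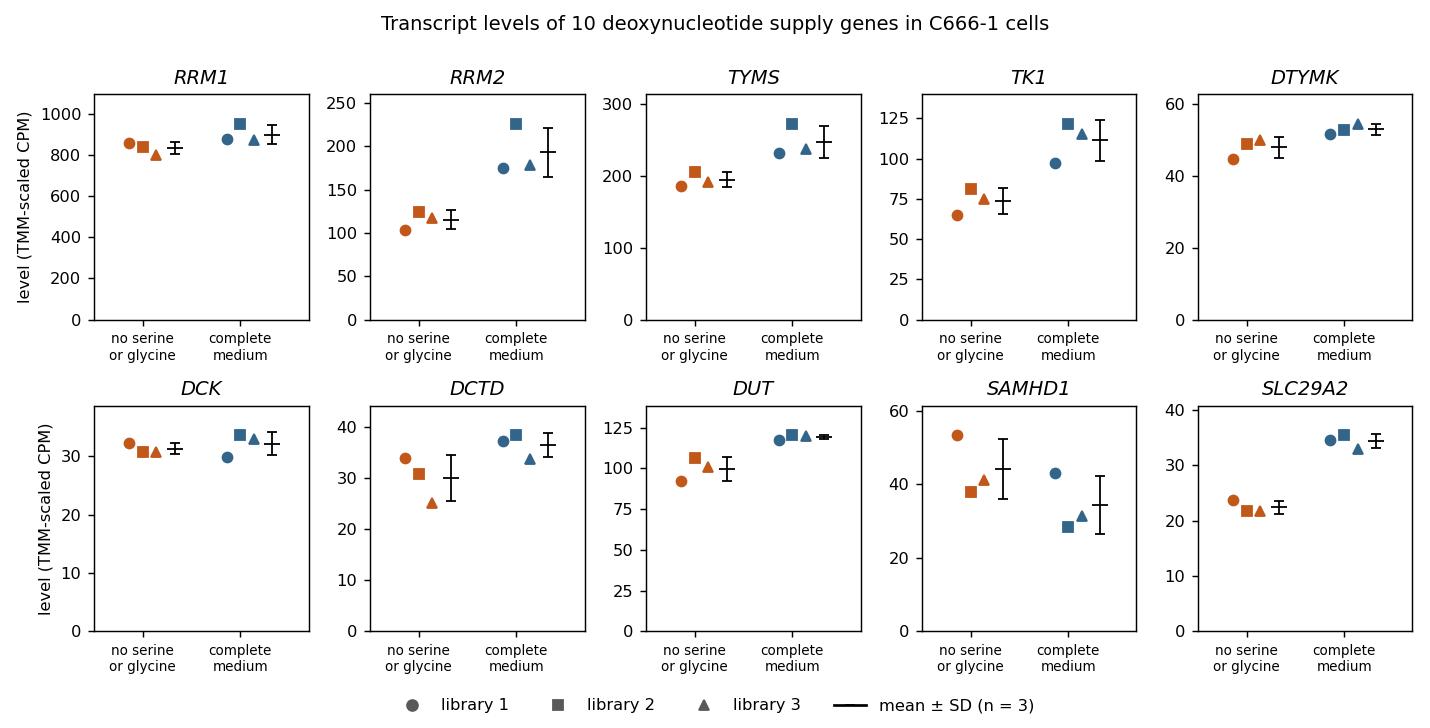
Level of each of the 10 genes (CPM, scaled by TMM) in the 3 libraries without serine and glycine (left) and the 3 in complete medium (right), with mean ± SD beside the points and the marker showing the library number. RRM2, TK1 and SLC29A2 stand well apart between the media, while DCK, DCTD and SAMHD1 overlap.

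The promoters of the genes that fell were read for a pair of sequence motifs that occur in many S-phase promoters. They were the CCAAT box (CCAAT, or ATTGG on the other strand), bound by NF-Y, and an E2F-like word (TTTCCCGC, TTTCGCGC, TTTGCCGC or TTTGGCGC, or the reverse complement of each). RefSeq sequence of GRCh38.p14 covered the 250 bases before each annotated start, matched 9 of the 10 genes by symbol, and had no entry for SLC29A2. Below are the windows of 4 genes that fell and of RRM1, which was not called, 5′ to 3′ along the gene, with motif matches in capitals. Where a gene has several annotated starts, the window with most matches is shown.
RRM2 (chr2:10122489-10122738, plus strand): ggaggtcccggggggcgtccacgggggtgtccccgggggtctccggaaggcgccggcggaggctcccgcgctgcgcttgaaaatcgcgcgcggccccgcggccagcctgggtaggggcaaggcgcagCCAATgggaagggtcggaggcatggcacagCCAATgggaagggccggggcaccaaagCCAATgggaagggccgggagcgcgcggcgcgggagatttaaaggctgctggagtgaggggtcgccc
TK1 (chr17:78187053-78187302, minus strand): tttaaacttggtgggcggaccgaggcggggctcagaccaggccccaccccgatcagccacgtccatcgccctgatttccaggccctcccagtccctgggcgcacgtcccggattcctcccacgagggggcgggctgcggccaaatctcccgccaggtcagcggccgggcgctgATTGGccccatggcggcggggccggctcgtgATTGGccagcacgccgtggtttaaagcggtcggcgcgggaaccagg
TYMS (chr18:657403-657652, plus strand): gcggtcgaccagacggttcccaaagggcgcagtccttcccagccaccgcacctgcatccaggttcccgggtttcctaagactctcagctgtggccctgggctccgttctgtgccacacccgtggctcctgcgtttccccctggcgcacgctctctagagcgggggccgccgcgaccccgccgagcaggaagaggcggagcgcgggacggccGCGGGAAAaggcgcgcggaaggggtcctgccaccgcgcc
DUT (chr15:48331947-48332196, plus strand): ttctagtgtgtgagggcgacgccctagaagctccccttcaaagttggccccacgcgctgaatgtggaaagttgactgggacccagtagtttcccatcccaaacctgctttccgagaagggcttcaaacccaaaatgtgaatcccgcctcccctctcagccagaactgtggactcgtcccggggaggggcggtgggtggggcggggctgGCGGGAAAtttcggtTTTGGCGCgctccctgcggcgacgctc
RRM1 (chr11:4094435-4094684, plus strand): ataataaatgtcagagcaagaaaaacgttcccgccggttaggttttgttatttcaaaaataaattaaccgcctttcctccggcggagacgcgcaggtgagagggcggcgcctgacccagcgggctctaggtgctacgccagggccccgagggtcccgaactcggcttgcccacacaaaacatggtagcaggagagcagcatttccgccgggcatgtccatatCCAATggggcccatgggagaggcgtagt
The RRM2 window held 3 CCAAT boxes, whose first bases lay 123, 93 and 66 bases before the start, and TK1 held 2 in reverse orientation, 77 and 46 bases before. TYMS held 1 E2F-like word and DUT 2. No CCAAT match overlapped an E2F-like match in these windows. Counting any window of a gene, 5 of 9 genes held a CCAAT box, against 37.0% of 27305 genes, and 2 of 9 held an E2F-like word, against 3.40%. Single windows held at least 3 CCAAT boxes in 2.93% of cases and at least 2 E2F-like words in 0.122%. The CCAAT box was found both in genes that fell (RRM2, TK1) and in genes that were not called (RRM1, DTYMK, SAMHD1). The E2F-like word was found in TYMS and DUT, which both fell, but in no window of RRM2 or TK1, which fell more. DCK and DCTD, which were not called, held neither motif. A match of letters is not evidence of binding, and the windows shown were picked for their matches.

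RRM2, the small subunit of ribonucleotide reductase that is made in S phase and carries the tyrosyl radical (NCBI Gene 6241, chromosome 2, 10122568 to 10211010 on GRCh38, plus strand), was the gene of the set with the largest fall. It was at 104, 125 and 118 CPM in libraries 1, 2 and 3 without serine and glycine, against 176, 226 and 178 CPM in complete medium. The highest library without serine and glycine was well below the lowest in complete medium, and library 2 of complete medium stood above its own group. The means were 115 ± 10.8 CPM and 193 ± 28.5 CPM (SD, n = 3 each), a log2 change of -0.74 (SE 0.107, edgeR adjusted p = 0.0217).

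RRM1, the large catalytic subunit (NCBI Gene 6240, chromosome 11, 4094685 to 4138932, plus strand), moved much less. Its levels were 857, 840 and 800 CPM without serine and glycine and 874, 950 and 870 CPM in complete medium, a log2 change of -0.11 (SE 0.070, edgeR adjusted p = 0.338). The groups did not overlap on this scale, but they did in TPM, where library 1 without serine and glycine was at 613 TPM, inside the range of 573 to 614 TPM in complete medium. The level of RRM2 per unit of RRM1, both in TPM, was 0.115, 0.141 and 0.139 in libraries 1, 2 and 3 without serine and glycine, against 0.190, 0.227 and 0.195 in complete medium. That ratio was lower in every deprived library, with a difference of log2 ratios of -0.63. The exact two-sided permutation test gave p = 0.1, the smallest that 3 against 3 libraries allow.

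RRM2B, a second small subunit that p53 induces and that serves DNA repair and resting cells, had the opposite sign. It was at 52.1, 50.9 and 46.4 CPM without serine and glycine, against 41.0, 44.4 and 40.3 CPM in complete medium. The groups did not overlap, and the log2 change was 0.25 (SE 0.075, edgeR adjusted p = 0.0707, and 0.0176 with the block). In TPM, RRM2 was at 2.97 to 3.78 times the level of RRM2B without serine and glycine and at 6.36 to 7.65 times in complete medium. TXN and GLRX, the thioredoxin and glutaredoxin that can reduce the enzyme, had log2 changes of -0.27 and -0.12 (edgeR adjusted p = 0.0529 and 0.470). With the block TXN had an adjusted p of 0.00444.

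**Figure D2:**
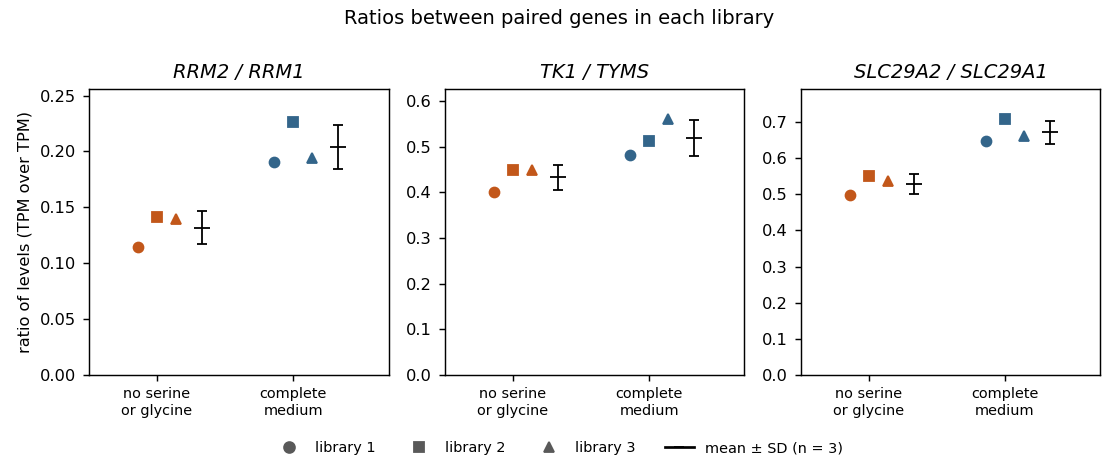
Ratio of 2 genes' levels (TPM over TPM) in each library, without serine and glycine (left) and in complete medium (right), with mean ± SD of 3 libraries. In all 3 pairs the deprived libraries lie below those in complete medium, with RRM2 over RRM1 at 0.132 ± 0.0148 and 0.204 ± 0.0200.

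Thymidylate is made from deoxyuridylate, which DUT and DCTD provide and TYMS methylates. TYMS, thymidylate synthase (NCBI Gene 7298, chromosome 18, 657653 to 673578, plus strand), was at 186, 206 and 191 CPM in libraries 1, 2 and 3 without serine and glycine, against 232, 272 and 237 CPM in complete medium. The groups were separate, and the log2 change was -0.35 (SE 0.076, edgeR adjusted p = 0.0317). TYMS missed the threshold by limma on log2(FPKM + 1), log2(TPM + 1) and log2(TPM + 0.1), with adjusted p of 0.0543, 0.0597 and 0.0587. ENOSF1, on the opposite strand, shares 967 of the 2470 exonic bases of TYMS (39.1%) in GENCODE release 29, and both genes had fractional counts in all 6 libraries. ENOSF1 also fell, to 59.7 ± 1.08 CPM without serine and glycine, against 80.7 ± 7.25 CPM in complete medium (SD, n = 3 each, log2 change -0.43, edgeR adjusted p = 0.0217). The labels do not say that the reads keep strand, so the reads of these 2 genes cannot be fully told apart.

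DUT, the dUTPase that turns dUTP into deoxyuridylate and keeps uracil out of DNA (NCBI Gene 1854, chromosome 15, 48331095 to 48343373, plus strand), was at 92.1, 106.5 and 100.8 CPM without serine and glycine. In complete medium it was at 118, 120 and 120 CPM. The complete-medium libraries lay close together and above all 3 deprived ones. The log2 change was -0.26 (SE 0.066, edgeR adjusted p = 0.0465), the smallest of the 5 called changes among the 10 genes. DUT lost its call when libraries were scaled by their totals (adjusted p = 0.0533), without library 1 of complete medium (0.0553), and by limma on log2(FPKM + 1), log2(TPM + 1) and log2(TPM + 0.1) (0.0599, 0.0781 and 0.0782). Its nuclear and mitochondrial forms cannot be told apart in counts per gene.

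DCTD, the deaminase that makes deoxyuridylate from deoxycytidylate (NCBI Gene 1635, chromosome 4, 182890091 to 182917611, minus strand), was at 33.9, 30.9 and 25.2 CPM without serine and glycine, against 37.2, 38.4 and 33.7 CPM in complete medium. Library 1 of the deprived medium reached into the range of complete medium. Its log2 change was -0.28 (SE 0.109, edgeR adjusted p = 0.131, and 0.0196 with the block), and without that library -0.38 with an adjusted p of 0.0272. Without library 3 of the deprived medium it was -0.17 with an adjusted p of 0.336. DTYMK, the thymidylate kinase that both the synthesis and the salvage route pass through (NCBI Gene 1841, chromosome 2, 241675747 to 241686815, minus strand), was at 44.7, 49.0 and 50.1 CPM without serine and glycine. In complete medium it was at 51.6, 52.8 and 54.5 CPM. The gap between the groups was small, with a log2 change of -0.14 (SE 0.070, edgeR adjusted p = 0.213).

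Among the enzymes that load carbon onto folate, MTHFD1, the trifunctional folate enzyme of the cytosol, fell. It was at 200, 183 and 182 CPM in libraries 1, 2 and 3 without serine and glycine and 232, 254 and 231 CPM in complete medium (log2 change -0.34, edgeR adjusted p = 0.0246). SHMT1, the cytosolic serine hydroxymethyltransferase, was at a log2 change of -0.19 (edgeR adjusted p = 0.0844), which the block brought to 0.0307. The mitochondrial SHMT2 was at -0.05 (edgeR adjusted p = 0.699).

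TK1, the cytosolic thymidine kinase of cycling cells (NCBI Gene 7083, chromosome 17, 78174079 to 78187204, minus strand), is the salvage counterpart of TYMS. It was at 65.1, 80.9 and 75.1 CPM in libraries 1, 2 and 3 without serine and glycine, against 97.3, 122 and 116 CPM in complete medium. In both media library 1 was the lowest and library 2 the highest, and the groups stood apart. The means were 73.7 ± 7.97 CPM and 112 ± 12.6 CPM (SD, n = 3 each), a log2 change of -0.60 (SE 0.1, edgeR adjusted p = 0.0217). TK1 per unit of TYMS, in TPM, was 0.433 ± 0.0278 without serine and glycine and 0.519 ± 0.0397 in complete medium, with no overlap (difference of log2 ratios -0.26, exact two-sided permutation p = 0.1, the smallest possible). TK1 had the larger proportional change of the pair in these libraries, and 3 against 3 libraries cannot bring such a p under 0.05.

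The other salvage kinases did not pass the test. DCK, deoxycytidine kinase (NCBI Gene 1633, chromosome 4, 70993649 to 71030914, plus strand), was at 32.3, 30.8 and 30.7 CPM without serine and glycine, against 29.95, 33.58 and 32.96 CPM in complete medium. The groups overlapped, with a log2 change of -0.04 (SE 0.077, edgeR adjusted p = 0.776), and the sign turned to 0.02 by limma on log2(TPM + 1) and log2(TPM + 0.1). TK2 and DGUOK, the mitochondrial thymidine and deoxyguanosine kinases, had log2 changes of 0.06 and 0.14 (edgeR adjusted p = 0.749 and 0.292). Among 14 other kinases of nucleosides and nucleotides, 1 fell and 0 rose, beside 4.22% and 2.73% of all tested genes. Their median log2 change was -0.02. With the block 3 were lower and 1 higher, beside 13.2% and 11.1% of all tested genes. The gene that fell was NME1, a nucleoside diphosphate kinase that makes triphosphates, at 177 ± 3.77 CPM and 211 ± 15.1 CPM (log2 change -0.25, edgeR adjusted p = 0.0466). NME1 lies beside the similar NME2, so the split of reads between them is uncertain.

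SLC29A2, an equilibrative nucleoside carrier also known as ENT2 (NCBI Gene 3177, chromosome 11, 66362521 to 66372446, minus strand), had the smallest p of the 10 genes. It was at 23.7, 21.7 and 21.7 CPM in libraries 1, 2 and 3 without serine and glycine, against 34.62, 35.40 and 33.02 CPM in complete medium. Libraries of a medium lay close together and far from those of the other. The log2 change was -0.62 (SE 0.078, edgeR adjusted p = 0.0184).

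Of 6 other carriers with enough counts, 0 were called by edgeR and 0 by limma voom, while DESeq2 called 1 lower. At an unadjusted edgeR p under 0.05, 2 were lower and 0 higher, beside 14.4% and 12.9% of all tested genes. With the block 1 was lower and 0 higher, beside 13.2% and 11.1% of all tested genes. SLC29A1, the sister carrier ENT1, was at 36.3, 31.1 and 32.1 CPM without serine and glycine and 42.9, 40.5 and 39.7 CPM in complete medium (log2 change -0.31, edgeR adjusted p = 0.0503, and 0.00778 with the block). The level of SLC29A2 per unit of SLC29A1, in TPM, was 0.529 ± 0.0267 and 0.672 ± 0.0322, with no overlap between the media (difference of log2 ratios -0.35, exact two-sided permutation p = 0.1). The concentrative carriers SLC28A1, SLC28A2 and SLC28A3 had at most 2 counts in any library and were not tested.

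SAMHD1, which hydrolyses deoxynucleoside triphosphates (NCBI Gene 25939, chromosome 20, 36889773 to 36951708, minus strand), was the only gene of the 10 with a positive log2 change. It was at 53.4, 37.8 and 41.3 CPM in libraries 1, 2 and 3 without serine and glycine, against 43.2, 28.5 and 31.3 CPM in complete medium. In both media library 1 was the highest, and library 1 of complete medium lay above libraries 2 and 3 of the deprived medium, so the groups overlapped. The log2 change was 0.36 (SE 0.174, edgeR adjusted p = 0.218). With the library number as a block the adjusted p was 0.00378, and within each number the deprived library was the higher one. Leaving out library 1 of complete medium without the block gave a log2 change of 0.56 (adjusted p = 0.0450). Without library 1 of the deprived medium it was 0.20 (adjusted p = 0.433) and without library 2 of complete medium 0.24 (0.548). TLDC2, on the opposite strand, shares 10.3% of the exonic bases of SAMHD1. Both genes had fractional counts in 5 libraries, and their reads cannot be fully told apart. TLDC2 itself did not pass the filter on low counts.

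Of 14 other genes that break down or clean the nucleotide pool, 1 fell and 0 rose, beside 4.22% and 2.73% of all tested genes. Their median log2 change was -0.18. Of the 14, 11 were on the negative side, beside 50.2% of all tested genes. At an unadjusted edgeR p under 0.05, 8 were lower and 2 higher, beside 14.4% and 12.9% of all tested genes. In 7 every deprived library lay below every library in complete medium and in 0 above, beside 16.4% and 16.1% of all tested genes. With the block 6 were lower and 2 higher, beside 13.2% and 11.1% of all tested genes. NT5C, a nucleotidase that removes phosphate from deoxynucleoside monophosphates, was at 10.8, 11.1 and 9.71 CPM without serine and glycine and 14.3, 15.6 and 14.3 CPM in complete medium (log2 change -0.48, SE 0.106, edgeR adjusted p = 0.0320).

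**Figure D3:**
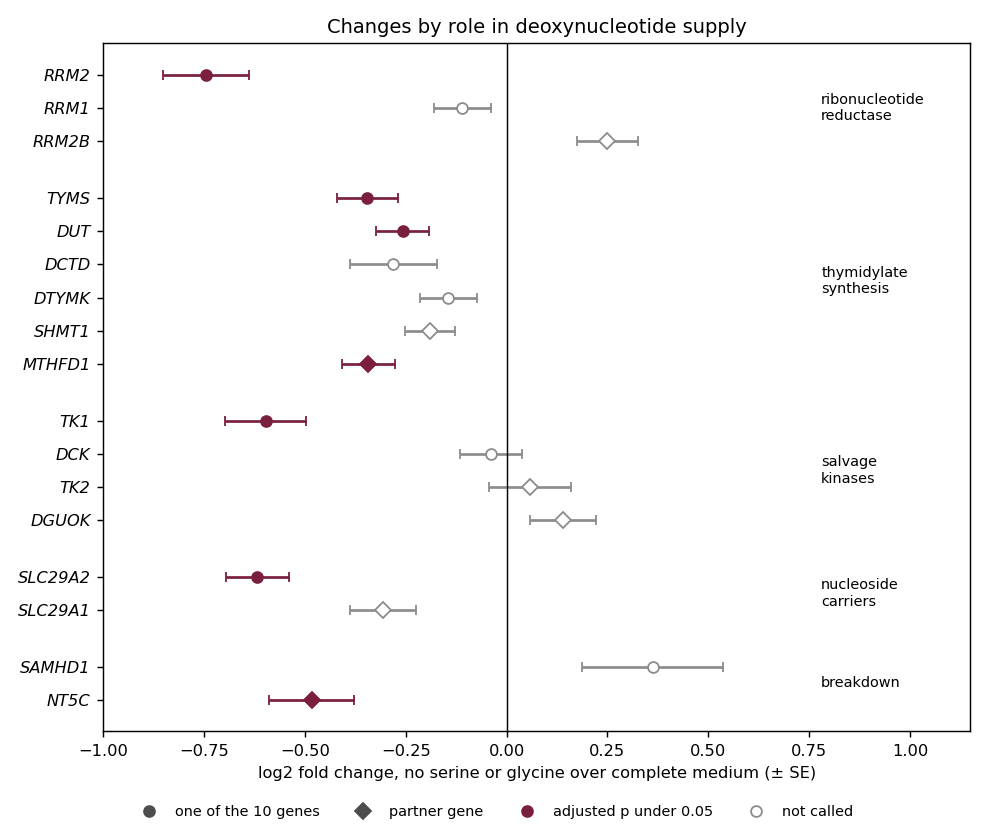
Log2 fold change (no serine or glycine over complete medium, ± SE) of the 10 genes (circles) and of partner genes (diamonds), grouped by role, with filled symbols for an edgeR adjusted p under 0.05. RRM2, SLC29A2 and TK1 have the most negative values, from -0.74 to -0.60, and SAMHD1 at 0.36 the most positive.

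Per length, RRM1 was the most abundant of the 10 genes in both media, at 573 ± 37.7 TPM without serine and glycine and 595 ± 20.6 TPM in complete medium (SD, n = 3 each). TYMS was next, at 287 ± 10.8 TPM and 350 ± 23.3 TPM, followed by TK1, at 124 ± 9.49 TPM and 182 ± 15.8 TPM. Without serine and glycine TK1 overlapped DTYMK (123 ± 2.96 TPM), which overlapped DUT (118 ± 4.34 TPM), so these 3 could not be ordered. In complete medium TK1 was separate from DUT, while DTYMK and RRM2 overlapped. The lowest levels without serine and glycine were those of SAMHD1 (20.2 ± 4.41 TPM) and SLC29A2 (18.7 ± 1.21 TPM), which overlapped. In complete medium SAMHD1 was lowest, at 15.04 ± 3.77 TPM. The summed level of the 10 genes was 1346 to 1434 TPM without serine and glycine, below the 1580 to 1694 TPM in complete medium. RRM1 made up 40.9% ± 1.60 of that sum without serine and glycine and 36.6% ± 0.610 in complete medium, and RRM2 5.37% ± 0.410 and 7.46% ± 0.661.

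Markers of S phase that are not among the 10 genes were mostly not called. The median log2 change of 40 such markers was -0.08. Among them 2 fell and 1 rose, beside 4.22% and 2.73% of all tested genes. The block raised this to 9 lower and 3 higher, beside 13.2% and 11.1% of all tested genes. Of the 40, 27 were on the negative side, beside 50.2% of all tested genes. At an unadjusted edgeR p under 0.05, 11 were lower and 2 higher, beside 14.4% and 12.9% of all tested genes. In 11 every deprived library lay below every library in complete medium and in 4 above, as in 16.4% and 16.1% of all tested genes. Those called were CDC45, part of the replicative helicase (log2 change -0.62, edgeR adjusted p = 0.0217), POLA1, the catalytic subunit of polymerase alpha-primase (-0.31, adjusted p = 0.0265), and DTL, a substrate receptor of a ubiquitin ligase (0.33, adjusted p = 0.0392). The summed level of the 40 markers was 3474 to 3915 TPM without serine and glycine and 3402 to 3788 TPM in complete medium, with the ranges overlapping. That sum weights abundant genes, and the part of cell cycle phase in the falls was not tested.

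Of 52 markers of G2 and mitosis, 0 were called by edgeR and 0 by limma voom, while DESeq2 called 3 lower. Over all tested genes edgeR called 4.22% lower and 2.73% higher, and DESeq2 5.87% and 3.92%. Unadjusted edgeR p values under 0.05 were found for 6 lower and 2 higher markers, shares below those of all tested genes (14.4% and 12.9%). The block brought the calls to 16 lower and 3 higher, beside 13.2% and 11.1% of all tested genes. Without the block the median log2 change of the 52 markers was -0.08. Of the 52, 37 were on the negative side, beside 50.2% of all tested genes. The smallest adjusted p values were those of TMPO (log2 change -0.22, edgeR adjusted p = 0.0808), ANP32E (-0.27, 0.0842) and CTCF (0.17, 0.102). Their summed level was 5599 to 6754 TPM without serine and glycine and 5670 to 6655 TPM in complete medium. Of 13 E2F and RB family regulators, which control many S-phase genes, 0 were called by edgeR, DESeq2 or limma voom. At an unadjusted edgeR p under 0.05, 2 were lower and 1 higher, beside 14.4% and 12.9% of all tested genes. The block called 1 in each direction, beside 13.2% lower and 11.1% higher over all tested genes. The 13 regulators had a median log2 change of 0.07.

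**Figure D4:**
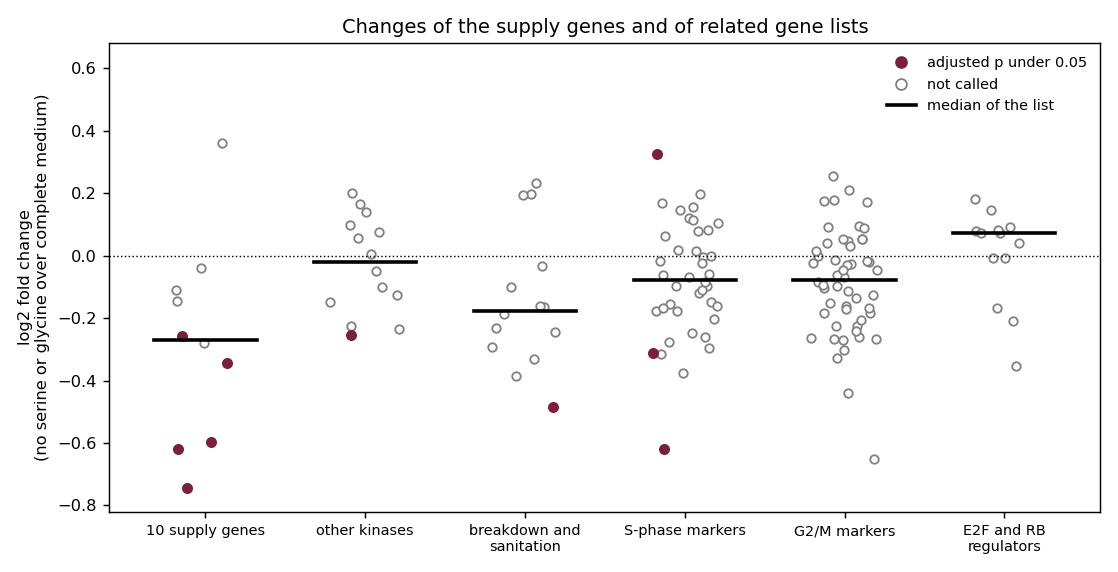
Log2 fold change (no serine or glycine over complete medium) of each tested gene in 6 lists, with filled points for an edgeR adjusted p under 0.05 and a bar at each list's median. The 10 supply genes have a median of -0.27, the S-phase and G2/M markers -0.08 each, and the E2F and RB regulators 0.07.

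Among 10583 other genes with a mean of at least 5 CPM, the pattern over the 6 libraries nearest to RRM2 was that of SARS2, the mitochondrial seryl-tRNA synthetase. Likeness was the root mean square difference of log2 CPM after each gene was centred on its mean, 0.0634 for SARS2. The next were NAPRT (0.0691), MAP3K6 (0.0710), SORD (0.0771) and KRT16 (0.0806). SARS2 was at 9.18 ± 0.449 CPM without serine and glycine and 15.5 ± 2.39 CPM in complete medium (SD, n = 3 each, log2 change -0.76, edgeR adjusted p = 0.0220). TK1 ranked 26 in this order, SLC29A2 138 and TYMS 311, with differences of 0.111, 0.168 and 0.208. RRM1 ranked 2653 and SAMHD1 10414, with differences of 0.338 and 0.660. These distances describe 6 libraries, and genes that fell by a like amount are near each other by construction.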

How the data were processed

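The submitters' processing notes name RSEM 1.3.1, Bowtie2 2.3.4.3 and the build GRCh38, with no annotation release. For each of 6 libraries the authors deposited FPKM, TPM and expected counts of every gene. The last were rounded and went into edgeR 4.0.16 under R 4.3.3 (filterByExpr with a minimum count of 10 and total of 15, TMM, robust quasi-likelihood, medium as the one term, two-sided, Benjamini-Hochberg over 12548 genes, call at 0.05). CPM uses TMM-scaled library sizes. SE was derived from the test (absolute log2 change over the root of F) and is not independent of p. Ratios and levels between genes use the deposited TPM.

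Alternatives were DESeq2 1.42.0, limma 3.58.1 voom, limma on log2(FPKM + 1), log2(TPM + 1) and log2(TPM + 0.1), other scalings, no filter, each library left out, and the library number as a block. Deviations from group means correlated at 0.326, 0.141 and 0.190 between same-numbered libraries, each above the 0.1 set for pairing, although library 2 without serine and glycine and library 3 of complete medium reached 0.163. Replicates of a medium differed by more than sampling noise (mean chi-square per gene 2.73 to 19.1), so none was counted as a copy. Library 1 without serine and glycine was closer to library 1 of complete medium (10.4) than to its own replicates (16.9 and 19.1). On simulated counts (12476 genes) edgeR found 77 of 100 genes with a 1.5-fold change and 97 of 100 with a 2-fold change. It made 192 calls, of which 18 were false, a share above the 0.05 set. The simulation drew each library independently and changed only these genes, none of them with low counts. The real libraries had correlated deviations and gave 872 calls, so the simulated shares need not hold for them.

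The genes, lists and naming rule were chosen with earlier results of these data known. The rule named the 10 genes, called members of the related enzyme lists, close partners (RRM2B, TK2, DGUOK, SLC29A1, and 1 that is not reported here), the 3 smallest adjusted p among S-phase and G2/M markers, the 5 patterns nearest to RRM2, and genes overlapping a member. TXN, GLRX, SHMT1 and SHMT2 were named beyond it, after their values were seen. Positions are from RefSeq, strands and exons from GENCODE release 29.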

Additional observations from a re-analysis of the deposited data

How the results depend on the processing

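Among all tested genes 872 were called, 874 and 883 with DESeq2's size factors or library totals in edgeR, 1083 with no filter on low counts, 1228 by DESeq2 and 859 by limma voom. By limma on log2(FPKM + 1), log2(TPM + 1) and log2(TPM + 0.1) there were 340, 117 and 150, with 3 of the 10 genes lower in each, RRM2, TK1 and SLC29A2. With the replicate block 3044 genes were called, with 6 of the 10 lower (DCTD added) and 1 higher (SAMHD1), and it changed no other call among the 10. Leaving out each library in turn gave 0 to 1737 genes over the table, 0 to 6 of the 10 lower and 0 to 1 higher. The 4 fits with 0 calls had 2173 to 2846 genes at an unadjusted p under 0.05. Leaving out both libraries numbered 1, an alternative chosen after seeing the data, gave 3643 genes, with 7 of the 10 lower and 1 higher, from fewer libraries to estimate the spread. The sign of DCK reversed on log2(TPM + 1) and log2(TPM + 0.1), to 0.0159 and 0.0164. In these fits the median log2 change of all tested genes was 0.0422 and 0.0472. The cause of the reversal was not tested. The other 9 genes kept their sign in every alternative. The 3 ratios kept their sign in FPKM, in counts and without each library, with differences of log2 ratios from -0.686 to -0.536 for RRM2 over RRM1, -0.310 to -0.202 for TK1 over TYMS and -0.375 to -0.304 for SLC29A2 over SLC29A1. The median log2 change of all genes stayed within 0.0472 of 0 in every alternative. With 3 libraries a medium, small changes may go uncalled. DUT was called at a log2 change of -0.26, while RRM1, DTYMK and DCK, at -0.11, -0.14 and -0.04, were not.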
